A study of Mus musculus with 8 samples.

Results

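The 8 genes described here are glial and myelin genes, chosen by symbol: Sox10, Erbb3, Cdh19, S100b, Gfap, Mbp, Pmp22 and Prx. All 8 were among the 32849 gene symbols of the count table and all 8 passed the filter on low counts, which left 14864 genes. Their RNA was measured by sequencing in esophagus tissue of 4 MGL KO and 4 WT mice, which the study describes as healthy. MGL is monoacylglycerol lipase, the enzyme that degrades the endocannabinoid 2-arachidonoylglycerol. Its gene, Mgll, is deleted in the whole animal in MGL KO mice, which the study bred with WT littermates, so glia, nerve, muscle and epithelium lack the enzyme together. The labels give no age or sex for each library, and the study used mice of both sexes. Y-linked genes were expressed in all 8 libraries, with a summed level between 185.6 and 223.7 normalized CPM (CPM, reads counted on a gene relative to the library total, scaled by normalization factors).

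Nerves enter the wall of the esophagus with Schwann cells around their axons, and enteric glia surround the neurons of the myenteric plexus between the muscle layers. Both kinds of glia arise from the neural crest and depend on the transcription factor SOX10, and both carry the receptor ERBB3 for axonal neuregulin. Myelinating Schwann cells wrap large axons, among them the motor fibers that reach the striated muscle of the mouse esophagus, and they make the myelin proteins MBP, PMP22 and periaxin. Enteric glia and non-myelinating Schwann cells make little myelin, and part of these cells make GFAP. S100B is not particular to them, since myelinating Schwann cells make it as well.

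Positions are those of GRCm39. Sox10 is on chromosome 15 from 79039108 to 79049469 and Prx on chromosome 7 from 27196813 to 27219639. Pmp22 is on chromosome 11 from 63019718 to 63050600, Gfap on chromosome 11 from 102778159 to 102791738, Erbb3 on chromosome 10 from 128403392 to 128425811 and S100b on chromosome 10 from 76085090 to 76097159. Cdh19 is on chromosome 1 from 110815039 to 110905349. Exons of Mbp overlap those of Gm58827 and exons of Prx those of Gm15541, both on the opposite strand. The use of strand in counting is not given in the sources used here, so reads of these pairs cannot be told apart.

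The 300 bases before the start of the canonical transcript were read for each gene, because several of the genes followed each other from library to library, as the correlations show. A search for the SOX core letters ACAAAG and ACAATG on both strands found a match in 1 of the 8 windows, that of Mbp, against 28.3% of the windows of 21751 protein-coding genes. The window of Prx (chr7:27198441-27198740, forward strand), which of the 8 genes followed Mbp most closely, is shown 5′ to 3′. It is in lower case throughout, since capitals would mark a match and it holds none.
Prx: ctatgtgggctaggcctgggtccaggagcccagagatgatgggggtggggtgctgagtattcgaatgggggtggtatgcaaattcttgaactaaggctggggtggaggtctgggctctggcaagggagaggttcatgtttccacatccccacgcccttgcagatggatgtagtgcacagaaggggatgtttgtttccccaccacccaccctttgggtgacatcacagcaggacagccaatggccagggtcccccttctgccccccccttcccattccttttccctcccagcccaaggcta

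The total count lay between 13479069 and 17090152 per library. Mgll, the targeted gene, was between 12.6 and 16.0 normalized CPM in the MGL KO libraries and between 66.6 and 88.3 in WT, lower in each MGL KO library than in any WT library. Markers of the tissue were present, with summed levels of 38636 to 95999 normalized CPM for 10 skeletal muscle genes and 2851 to 5349 for 6 genes of the basal squamous epithelium. MGL KO replicate 4 held 625.2 normalized CPM of 8 airway ciliated genes, against at most 19.5 in the other libraries. MGL KO replicate 2 and WT replicate 3 had the most skeletal muscle RNA, at 95999 and 80420 normalized CPM, and the least squamous and adipocyte RNA. These same 2 libraries held the lowest levels of most glial genes, and some results are given with and without them. The lists of differentiated squamous epithelium (2181 to 15372 normalized CPM), fibroblasts (1034 to 2423) and endothelium (137.3 to 241.3) overlapped between the groups. All 5 fibroblast and all 5 endothelial genes had log2 fold changes below 0, with medians of -0.35 and -0.18, and 0 of them were called, with 2 and 1 at an unadjusted p under 0.05 in the edgeR test. The oligodendrocyte genes summed to at most 0.725. The methods name a pair of sequencer models without saying which library each read, and the labels name no batch.

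Between the lowest and the highest of the 8 libraries, levels differed from 1.74-fold for Gfap to 3.78-fold for Sox10. None of the 8 genes changed with the loss of MGL in the quasi-likelihood test of edgeR after adjustment over all genes, and 0 of the 8 had an unadjusted p under 0.05, against 8.65% of all genes tested. Over the whole table, 7 genes (0.0471%) passed the adjusted threshold of 0.05. In none of the 8 genes were the MGL KO and WT libraries apart without overlap, which 6.02% of the genes tested were. Fitted log2 fold changes (MGL KO minus WT) were above 0 in 3 and below 0 in 5 of the 8 genes, with a median of -0.08, against a median of 0.02 over all genes tested. Without MGL KO replicate 2 the values of Erbb3, Cdh19, Mbp and Prx turned above 0, so that 7 of the 8 were above 0 with a median of 0.12. Without WT replicate 3, 2 were above and 6 below 0, with a median of -0.26. The exact test of edgeR, DESeq2 and limma-voom also called 0 of the 8. Because tissue and not sorted cells was sequenced, fewer glial cells and less RNA per glial cell cannot be told apart in any of these values.

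Sox10, which specifies and maintains glia, was at 14.5, 6.41, 16.6 and 13.6 normalized CPM in MGL KO replicates 1 to 4 and at 24.2, 21.1, 9.07 and 16.4 in WT replicates 1 to 4. Both groups thus held 1 low library, and the ranges overlapped. The means were 12.8 ± 4.44 in MGL KO and 17.7 ± 6.59 normalized CPM in WT (SD, n = 4). The log2 fold change was -0.47 (standard error 0.35, 95% interval -1.26 to 0.33, edgeR quasi-likelihood adjusted p = 0.714), the farthest from 0 among the 8 genes in this fit. That place did not hold in every alternative. Without WT replicate 1, Sox10 was at -0.28 and S100b at 0.42.

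Erbb3 encodes the neuregulin receptor that Schwann cell precursors need to survive, and it is also made by epithelia. It was at 53.6, 34.3, 54.9 and 61.5 normalized CPM in MGL KO replicates 1 to 4, and at 56.4, 71.8, 41.2 and 56.5 in WT. Cdh19, a cadherin typical of Schwann cells and their precursors, was at 23.8, 10.5, 27.0 and 21.9 normalized CPM in MGL KO and at 25.6, 26.4, 13.1 and 28.6 in WT. In both genes MGL KO replicate 2 was the lowest of all libraries and WT replicate 3 the next. Their log2 fold changes were -0.14 (95% interval -0.62 to 0.33) for Erbb3 and -0.17 (-0.89 to 0.55) for Cdh19.

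S100b, which encodes a calcium-binding protein of glia that fat and cartilage cells also make, went the other way across libraries. It was at 9.86, 12.9, 6.35 and 10.8 normalized CPM in MGL KO and at 7.31, 5.76, 9.07 and 7.50 in WT. MGL KO replicate 2 and WT replicate 3 were the highest of their groups. The log2 fold change was 0.43 (standard error 0.24, 95% interval -0.12 to 0.98, edgeR quasi-likelihood adjusted p = 0.651). The adipocyte genes were lowest in these same libraries, with sums of 9.29 normalized CPM in MGL KO replicate 2 and 3.48 in WT replicate 3, against 34.1 to 181.5 in the other 6. The cartilage genes summed to at most 4.33 normalized CPM in any library, with Col9a1 at 0 in 7 libraries. The part of other cell types in the S100b values was not tested.

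Gfap, the intermediate filament of astrocytes and part of the enteric glia, had the fewest reads of the 8 genes, with 28 to 72 counts per library. It was at 3.31, 2.53, 4.01 and 3.15 normalized CPM in MGL KO and at 2.40, 4.11, 2.37 and 3.39 in WT. The groups covered nearly the same range, and the log2 fold change was 0.08 (95% interval -0.52 to 0.69).

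Mbp and Prx differed 3.41-fold and 3.22-fold between the lowest and the highest library, next to Sox10. Mbp, on chromosome 18, for myelin basic protein that compacts the sheath from its inner face, was at 88.2, 39.4, 100.3 and 111.7 normalized CPM in MGL KO and at 121.5, 100.3, 35.6 and 85.0 in WT. The lowest and the highest library both belonged to WT, and the means of 84.9 ± 31.8 and 85.6 ± 36.5 (SD, n = 4) gave a log2 fold change of -0.01 (95% interval -0.91 to 0.89). Transcripts of the Mbp locus that immune and other cells use are counted with those of myelin.

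Prx encodes periaxin, which anchors the Schwann cell membrane to the basal lamina. It was at 14.6, 7.13, 15.8 and 20.9 normalized CPM in MGL KO and at 23.0, 19.2, 7.76 and 15.7 in WT. Its log2 fold change was -0.16 (95% interval -1.02 to 0.69). Pmp22, a membrane protein of compact myelin that epithelial cells and fibroblasts also make, was at 119.5, 85.3, 132.2 and 115.9 normalized CPM in MGL KO and at 109.1, 105.5, 69.3 and 115.1 in WT. Its low libraries were less far from the rest than those of Mbp or Prx, and the log2 fold change was 0.18 (95% interval -0.24 to 0.61).

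**Figure D1:**
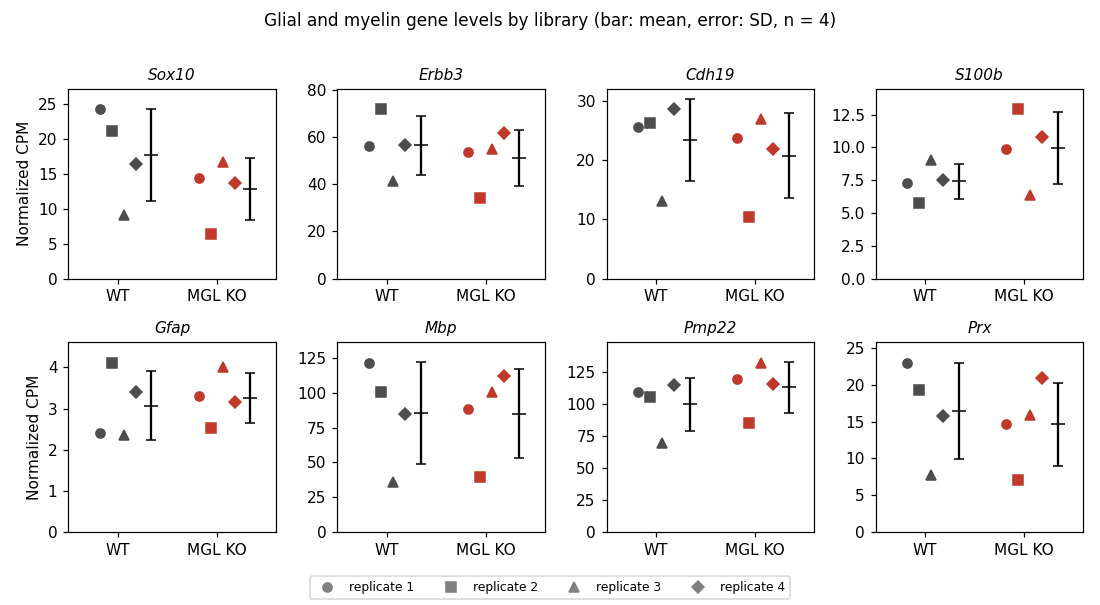
Normalized CPM of each gene (vertical axis, from 0) in the 4 WT (gray) and 4 MGL KO (red) libraries, with the marker shape giving the replicate and the black bar the mean and SD. The WT triangle (replicate 3) and the MGL KO square (replicate 2) sit lowest of their groups in every gene but S100b, where they sit highest.

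Per kilobase of canonical transcript, Mbp and Pmp22 were the most abundant, with a mean over the 8 libraries of 39.6 and 38.7 normalized CPM per kilobase. Their ranges of 16.5 to 56.4 and 25.2 to 48.1 overlapped. Erbb3 followed at 8.92, its highest value of 11.9 being below the lowest of Pmp22. Sox10 was at 5.60, S100b at 5.15, Cdh19 at 4.26 and Prx at 3.20 normalized CPM per kilobase. From Erbb3 to Prx, neighbors in this order overlapped. Gfap was last at 1.10 (0.823 to 1.43), below the lowest value of Prx, 1.47. The place of Mbp rests on the length used, because its level per kilobase of all annotated exons was 8.75 against 25.9 for Pmp22.

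As for other genes of these cells, 0 of 34 tested genes from 4 lists (35 were listed) were called, and 0 had an unadjusted p under 0.05 in edgeR's quasi-likelihood test. The exact test, DESeq2 and limma-voom called 0 of them as well. Fitted log2 fold changes were above 0 in 14 and below 0 in 20 of them, with a median of -0.07. Of the 12 tested myelin sheath genes, 6 were higher and 6 lower without passing the test. Mag, an adhesion protein facing the axon, had a log2 fold change of -0.35, Gjc3, a glial connexin, -0.27, Ugt8a, an enzyme of myelin galactolipid synthesis, 0.39 and Gjb1, the connexin of Schwann cells, 0.77. The value of Gjb1 rests on MGL KO replicate 4, which had 4.55 normalized CPM against at most 1.06 in all other libraries. Without that library, which also held the airway ciliated genes, it was -0.79 (edgeR quasi-likelihood adjusted p = 0.588), and Ugt8a was at -0.14. Without MGL KO replicate 2, Mag was at -0.065 and Gjc3 at -0.026.

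Among 4 regulators, the log2 fold change was 0.79 for Egr2, the factor that switches on myelin genes and is also an immediate early gene, 0.28 for Sox2, which marks immature glia and the basal epithelium, -0.13 for Pou3f1 and -0.42 for Foxd3, a factor of neural crest cells. Without MGL KO replicate 4, Sox2 was at 0.056 and Pou3f1 at 0.027. Among the 9 ligands and receptors, 2 were above 0, with 0.51 for Adam22, a receptor of LGI proteins, and 0.00 for Adgrg6, a receptor needed for myelination. Adam22 was at 9.44 normalized CPM in MGL KO replicate 4 against at most 4.29 elsewhere, and its log2 fold change without that library was -0.049. The lowest were Lgi4, a Schwann cell ligand, at -0.56 and Gfra3 at -0.33, which was -0.97 without MGL KO replicate 3 and -0.016 without WT replicate 4. Among the 9 genes of non-myelinating and enteric glia, Fabp7 was at 0.60, Art3 at 0.21, Entpd2, an ecto-nucleotidase of enteric glia, at -0.41 and Gpr37l1 at -0.33. Adjusted p-values of these 34 genes were 0.609 or more in edgeR's quasi-likelihood test. Of the 5 oligodendrocyte genes, another cell type that uses SOX10, Olig2 had 0 counts in all 8 libraries and the other 4 at most 0.614 normalized CPM. Of the 5 melanocyte genes, which summed to 1.76 to 3.32 normalized CPM, Tyr had 0 counts in 7 of 8 libraries. Pmel, a melanosome protein, was detected in all 8 at 1.43 to 2.79 normalized CPM, a range that overlapped that of Gfap, and Dct in all 8 at no more than 0.281. The part of melanocytes in the Sox10 values was not tested.

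**Figure D2:**
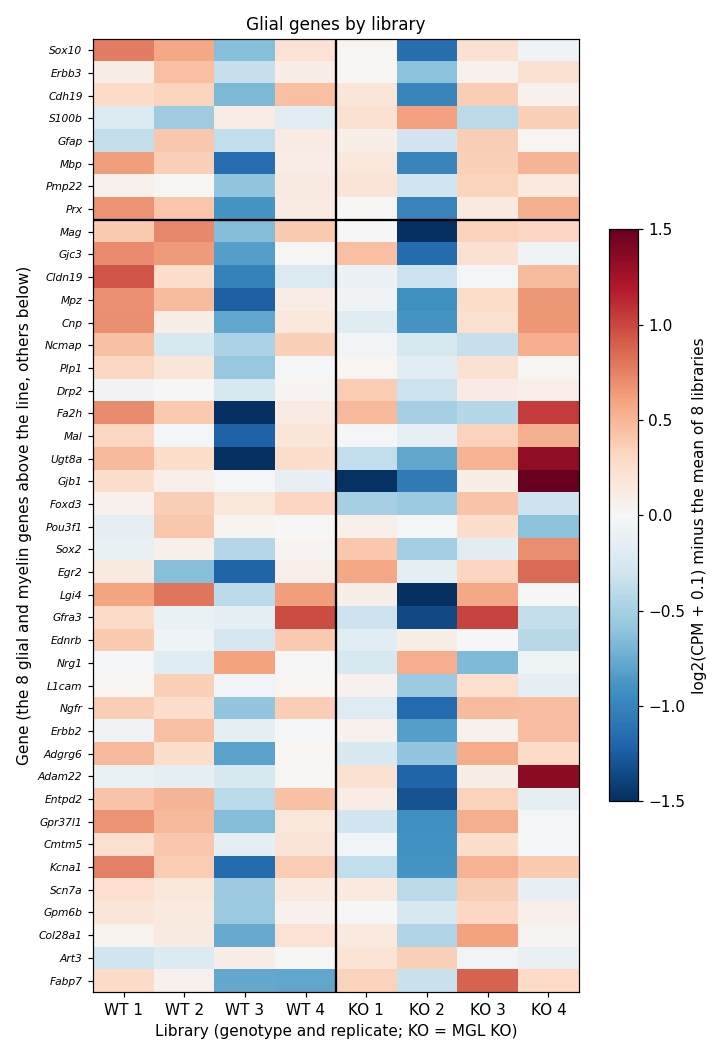
Each row is a gene and each column a library, with color giving log2(CPM + 0.1) minus the mean of the gene over the 8 libraries (red above, blue below). The columns WT 3 and KO 2 are blue in most rows of both the 8 genes (above the line) and the 34 other glial genes, while no block of rows separates WT from KO.

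MGL KO replicate 2 was the lowest MGL KO library in 7 of the 8 genes and in 28 of the 34 other glial genes. WT replicate 3 was the lowest WT library in 7 of the 8 and in 28 of the 34. They were the 2 lowest of all libraries in 6 of the 8 genes and in 23 of the 34, against 14.6% of all genes tested. Over all genes tested, MGL KO replicate 2 was the lowest MGL KO library in 39.3% and WT replicate 3 the lowest WT library in 35.8%. These shares are a description, since the 2 libraries were singled out after the values were seen. The exceptions among the 8 were S100b and Gfap. Between the lowest and the highest library, the 13 listed myelin sheath genes together ranged from 110.1 to 289.1 normalized CPM, whereas 13 genes of neurons and axons ranged from 398.4 to 610.7, a sum mostly made of Nos1, which striated muscle also makes. In the neuron list, MGL KO replicate 2 was at 537.8 and WT replicate 3 at 420.2. The 9 genes of non-myelinating and enteric glia together ranged less than either, from 262.9 to 340.2, with WT replicate 3 the lowest of all 8 and MGL KO replicate 2 at 302.8, above replicate 4 at 288.0. Their largest contributor was Art3, the highest of its group at 204.1 normalized CPM in MGL KO replicate 2 and 170.7 in WT replicate 3. Art3 differed 1.58-fold between the lowest and the highest library, the least of the 9. The others differed from 1.83-fold for Gpm6b to 3.78-fold for Kcna1, so the sum does not show their spread.

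Across the 8 libraries, 28 pairs of the 8 genes were compared by their log2 CPM. Pearson's r was above 0 in 21 pairs and below 0 in all 7 pairs with S100b (-0.80 to -0.39). Of the 28, 7 had an adjusted p under 0.05 by the exact permutation test of r over libraries, and 1 by that of rho. With 1 library left out, 0 to 11 passed by r. For Mbp and Prx, r was 0.98 (two-sided exact permutation test, p = 0.00057, adjusted p = 0.016) and Spearman's rho 0.95 (exact p = 0.00114, adjusted p = 0.0319), and r was 0.91 without MGL KO replicate 2 and WT replicate 3. For Sox10 and Cdh19, r was 0.92 (exact permutation p = 0.00335, adjusted p = 0.0332) and rho 0.76 (exact p = 0.0368, adjusted p = 0.172), and r fell to 0.46 without these 2 libraries. For Sox10 and Prx the values were 0.91 for r (exact permutation p = 0.00394, adjusted p = 0.0332), 0.76 for rho (exact p = 0.0368, adjusted p = 0.172) and 0.54 for r without the pair. Among Sox10, Erbb3, Cdh19, Mbp, Pmp22 and Prx, a set of 6 named after the values were seen, r lay between 0.66 and 0.98 in the 15 pairs, and between -0.66 and 0.91 without the pair of libraries. Most of these r were thus much lower without MGL KO replicate 2 and WT replicate 3, that of Mbp with Prx being an exception. Leaving out the libraries farthest from the median narrows the range of levels. A lower r therefore cannot show that the relations rest on these 2 libraries alone. Within groups, the deviations from the group means correlated at 0.99 for Mbp and Prx, given as a description.

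**Figure D3:**
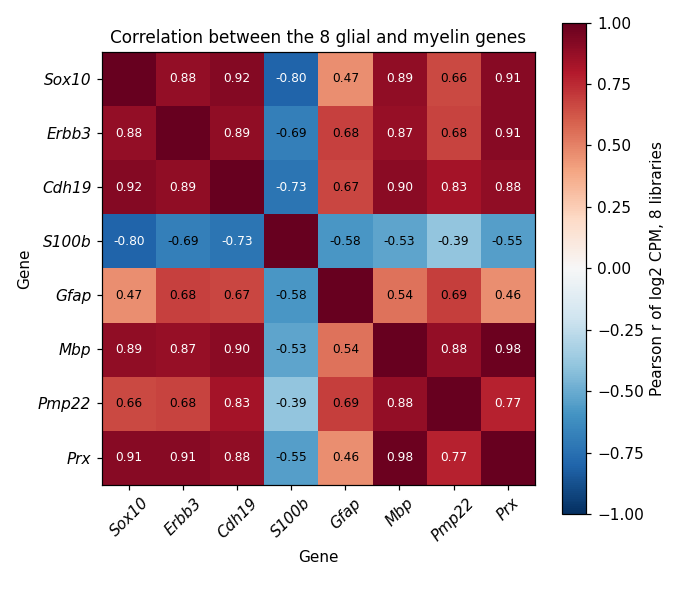
Pearson's r of log2 CPM over the 8 libraries for each pair of genes, printed in each cell (red above 0, blue below 0). Mbp and Prx reach 0.98, and the row of S100b is below 0 throughout.

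The levels were also set against 7 lists of other cell types, 56 relations that were added after the values had been seen. Mbp fell as skeletal muscle genes rose, with r = -0.90 (two-sided exact permutation test, p = 0.00062, adjusted p = 0.0278) and rho = -0.95 (exact p = 0.00114, adjusted p = 0.0625), and r = -0.87 without WT replicate 3 and MGL KO replicate 2. For Prx, r was -0.92 (exact permutation p = 0.00102, adjusted p = 0.0278), rho -0.93 (exact p = 0.00223, adjusted p = 0.0625) and r without the pair -0.80. Mbp rose with adipocyte genes, at r = 0.94 (exact permutation p = 0.00149, adjusted p = 0.0278) and rho = 0.81 (exact p = 0.0218, adjusted p = 0.152), with r = 0.68 without the pair. No other relation passed an adjusted p of 0.05, and none did by rho. For Sox10, the gene with the lowest fold change, r was 0.83 with endothelial genes (exact permutation p = 0.0128, adjusted p = 0.0652, rho = 0.86 with exact p = 0.0107 and adjusted p = 0.15) and 0.79 with fibroblast genes (exact permutation p = 0.0212, adjusted p = 0.0698, rho = 0.74 with exact p = 0.0458 and adjusted p = 0.214). Without MGL KO replicate 2 and WT replicate 3 these r were 0.60 and 0.58. The highest r of Sox10 was 0.87, with basal squamous genes (exact permutation p = 0.0118, adjusted p = 0.0652). It was 0.81 with differentiated squamous, -0.78 with skeletal muscle, 0.74 with adipocyte and 0.08 with neuron genes. Without the pair, r was -0.08 for basal squamous, 0.06 for differentiated squamous, -0.24 for skeletal muscle and 0.004 for adipocyte genes. S100b had the only r above 0 with skeletal muscle, 0.33 (exact permutation p = 0.42, adjusted p = 0.48, rho = 0.36 with exact p = 0.389 and adjusted p = 0.532), which was -0.15 without MGL KO replicate 2 and WT replicate 2, the 2 libraries farthest from its median. MGL KO replicate 2, the library with the most skeletal muscle RNA, also had the highest S100b of all 8. With every other list the r of S100b was below 0. The farthest from 0 was -0.84, with fibroblast genes (exact permutation p = 0.00955, adjusted p = 0.0645, rho = -0.83). With endothelial genes r was -0.79 (exact permutation p = 0.0204, adjusted p = 0.0698, rho = -0.76). Without MGL KO replicate 2 and WT replicate 2 these r were -0.97 and -0.69. The part of tissue makeup in these relations was not tested.

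**Figure D4:**
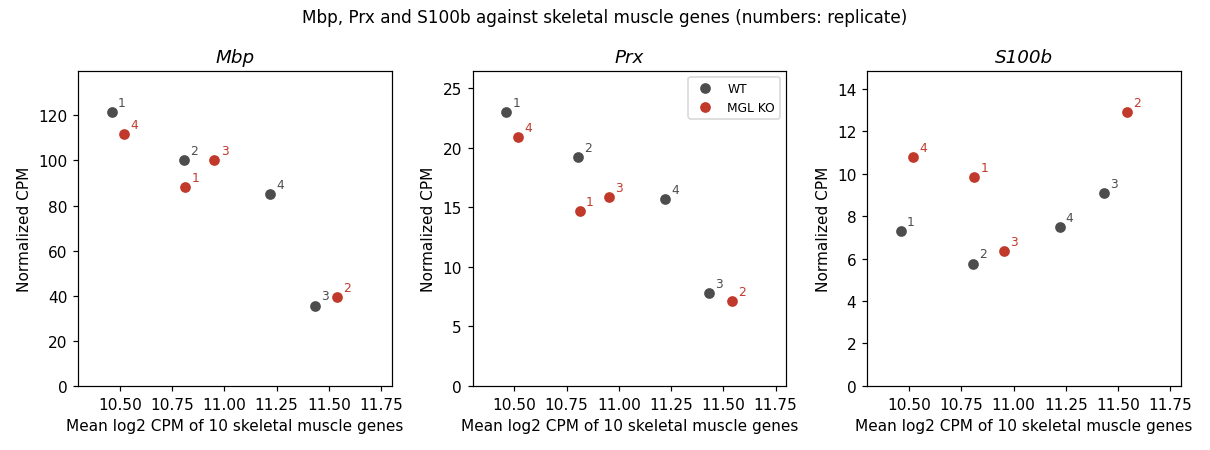
Normalized CPM of Mbp, Prx and S100b (vertical axes, from 0) against the mean log2 CPM of 10 skeletal muscle genes (horizontal axes) in WT (gray) and MGL KO (red) libraries, numbered by replicate. Mbp and Prx decline from left to right with r of -0.90 and -0.92, and S100b shows no such decline.

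With the skeletal muscle level as a covariate, the standard error of the genotype difference was 0.20 for Mbp and 0.18 for Prx, and Sox10 was at -0.47 (95% interval -0.96 to 0.01, unadjusted p = 0.0546, edgeR adjusted p = 0.404). With the mean level of the 34 other glial genes as a covariate, a fit added after the values were seen, the standard error of the genotype difference of Mbp dropped from 0.40 to 0.10 and that of Prx from 0.38 to 0.13. The log2 fold change of Sox10 was then -0.39 (95% interval -0.74 to -0.04, unadjusted p = 0.0329, edgeR adjusted p = 0.326) and that of Pmp22 0.23 (0.02 to 0.43, unadjusted p = 0.0365, adjusted p = 0.338). Mbp was at 0.10 (-0.12 to 0.33). None of the 8 passed the adjusted threshold. The same holds without MGL KO replicate 2 and WT replicate 3, where Sox10 was at -0.46 (95% interval -0.87 to -0.06, adjusted p = 0.528). The ratio of Mbp to Sox10 in each library was 6.10, 6.15, 6.03 and 8.21 in MGL KO and 5.02, 4.75, 3.93 and 5.17 in WT, so that the groups did not overlap. The ratio of Pmp22 to Sox10 was 7.94 to 13.3 in MGL KO and 4.50 to 7.64 in WT, again without overlap, while the other 5 ratios overlapped. Over all genes tested, 1.78% of the ratios to Sox10 did not overlap, and in 1.64% every MGL KO library was above every WT library, as in these 2. These ratios were formed after the values were seen and share the Sox10 level, so they are a description.

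**Figure D5:**
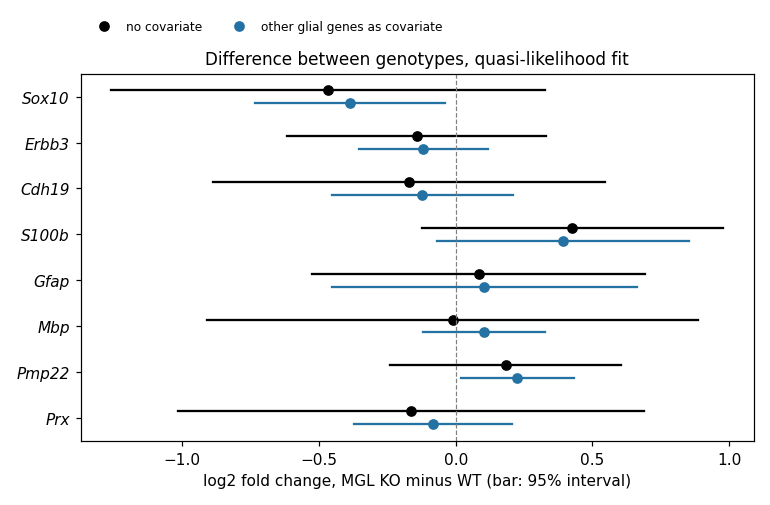
Log2 fold change of each gene, MGL KO minus WT (horizontal axis), with its 95% interval, without a covariate (black) and with the other glial genes as covariate (blue). The black intervals all span 0, from -1.26 to 0.98 at their widest ends, and the blue intervals are narrower.

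The genes whose log2 CPM over the 8 libraries was most like that of Sox10 were Il33, an alarmin cytokine of stromal and barrier cells (r = 0.99), Dpysl5 (r = 0.99) and Gpc3 (r = 0.98). Most like Mbp were Efnb1 (r = 0.99), Lmnb1, a nuclear lamin (r = 0.99) and Hnrnpul2 (r = 0.99). These r-values were picked as the highest over the table and carry no test. Without MGL KO replicate 2 and WT replicate 3, they were 0.95, 0.94 and 0.93 with Sox10 and 0.91, 0.96 and 0.76 with Mbp.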

How the data were processed

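RNA of frozen esophagus tissue was selected for poly(A) tails and sequenced. Per the labels and the study methods, the authors checked reads with FastQC 0.11.9, trimmed them with Cutadapt and aligned them to GRCm39 with STAR 2.7.10b, then deposited raw counts per gene symbol. The annotation, the counting tool and its use of strand are not given in the sources used here. Groups and replicate numbers came from the sample titles. The labels do not name littermates or batches, so p-values measure the spread between these libraries. Libraries of the same group differed by more than counting noise (chi-square per degree of freedom at least 13.6).

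Genes were kept by filterByExpr at a minimum count of 10, with TMM factors, and compared by the quasi-likelihood test of edgeR 4.0.16 in R 4.3.3, with Benjamini-Hochberg adjustment over 14864 genes. The study's methods name the exact test of edgeR. It was among the alternatives, with DESeq2 1.42.0, limma-voom with quality weights (limma 3.58.1), a robust fit, RLE factors, library size alone, other filters, a prior count of 5, covariates, a replicate block and leaving out each library. The fits with glial genes as covariate or without 2 libraries, the ratios and the cell type relations were added after the data were seen. Standard errors are the log2 fold change over the root of F, and 95% intervals use the test's degrees of freedom. Log2 CPM used a prior count of 1. A total of 3 counts equals 0.167 to 0.271 normalized CPM, for counting error only. Lengths, loci and 300-base windows came from GENCODE vM39 on GRCm39. Tests were tested on simulated data. Named genes were the 8 genes, up to 2 highest and 2 lowest of each of 4 glial lists, the 3 genes most like Sox10 and Mbp with a mean of at least 1 CPM, and Mgll. Genes and lists were chosen with earlier results of these data known. The lists of neurons, skeletal muscle, differentiated and basal squamous epithelium, fibroblasts, endothelium and adipocytes gave the 7 cell type relations.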

Additional observations from a re-analysis of the deposited data

Results flagged for a closer look

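In 78 groups of 4 values compared, covering the 8 genes, the named glial genes and the cell type lists, 4 held a library far from its group. Chance gives about 3.9 if the groups are independent, which values from the same libraries are not. That number therefore does not say whether a single flagged value arose by chance. None of the 4 was one of the 8 genes. Gjb1 was at 4.55 normalized CPM in MGL KO replicate 4, with the others of its group at most 0.925. The airway ciliated genes summed to 625.2 normalized CPM in the same library, others at most 19.5. Entpd2 was at 8.88 normalized CPM in WT replicate 3, others at least 15.9. The basal squamous genes summed to 3037 normalized CPM in WT replicate 3, others at least 4512.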

How the results depend on the processing

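The count of called genes among the 8 genes was 0 in every alternative run, and among the other glial genes in every one but the glial covariate, for which it was not counted because these genes form the covariate. Over the whole table, the 7 calls became 64 in the exact test on filtered genes, 42 in that test on every gene that had a count, 138 with DESeq2, 25 with limma-voom, 18 with a skeletal muscle covariate, 13 at an adjusted p under 0.1, 3 with a covariate of Y-linked genes, 2 when no filter was used and 2 in the robust fit. With 1 library left out there were 2 to 5 calls. Dropping WT replicate 4 left 5 calls, dropping MGL KO replicate 1 left 4, dropping MGL KO replicate 2 left 3, and each remaining library left 2 when dropped. Among the settings added after seeing the data, calls numbered 2 without MGL KO replicate 2 and WT replicate 3, and 15 with the glial covariate. The replicate numbers used as a replicate block gave 2 calls and 0 among glial genes. Deviations of same-numbered libraries correlated at -0.14, -0.28, -0.14 and 0.08. The labels name no pairing, and such correlations over all genes cannot show whether same-numbered libraries were paired. The median log2 fold change of the 8 genes lay between -0.26 and 0.12.

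Pairs of genes with an adjusted permutation p under 0.05 numbered 7, 18 with library size alone, and 0 to 11 with 1 library left out (0 without WT replicate 2, 11 without WT replicate 1). The cause was not tested.

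The sign of values that passed no test changed as follows. Mbp was at 0.035 with limma-voom, 0.015 with the replicate block, 0.21 with the Y-linked covariate and 0.10 with the glial covariate, and Prx at 0.034 and Gjc3 at 0.051 with the Y-linked covariate. Gjb1 was at -0.46 with limma-voom and -0.051 with the replicate block. Adgrg6 was at -0.027 with library size alone, -0.0013 where all libraries needed at least 10 counts and -0.034 without MGL KO replicate 2 and WT replicate 3. With 1 library left out, log2 fold changes lay between -0.26 and 0.23 for Mbp, -0.39 and 0.061 for Prx, -0.36 and 0.049 for Cdh19, -0.26 and 0.0079 for Erbb3, -0.032 and 0.26 for Gfap, -0.79 and 1.13 for Gjb1, -0.20 and 0.18 for Adgrg6, -0.049 and 0.80 for Adam22, -0.14 and 0.64 for Ugt8a and -0.26 and 0.027 for Pou3f1. The sign of the last 3 and of Gjb1 turned when MGL KO replicate 4 was dropped. The ranges that held their sign were -0.56 to -0.065 for Mag, -0.50 to -0.026 for Gjc3, -0.87 to -0.23 for Lgi4, -0.61 to -0.17 for Entpd2 and -0.61 to -0.13 for Gpr37l1, each nearest to 0 once MGL KO replicate 2 was dropped, and -0.97 to -0.016 for Gfra3, -0.70 to -0.31 for Foxd3, 0.056 to 0.45 for Sox2, 0.58 to 0.99 for Egr2, 0.37 to 0.83 for Fabp7 and 0.12 to 0.29 for Art3. Sox10 stayed between -0.68 and -0.25, S100b between 0.28 and 0.59 and Pmp22 between 0.05 and 0.30. The 95% interval given with a gene limits the differences that these libraries leave possible for it.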
